A study of Mus musculus with 24 samples.

Results

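The early response of mouse macrophages to a sphingomyelin was read from 8 of the 24 libraries of the series, 4 of cells stimulated with S14 for 3 h and 4 of cells left untreated and harvested at 3 h. The libraries were chosen by their labels, with no measured value. S14 is sphingomyelin d18:1/14:0, a membrane lipid with a sphingoid base and a shorter fatty acyl chain than most cellular sphingomyelins, and it was given at 30 µM. The cells were macrophages grown from the bone marrow of C57BL/6J wild-type mice in medium conditioned by L929 cells, a fibroblast line that secretes the macrophage growth factor M-CSF. Both groups share genotype, culture and time, and differ in S14. The labels describe the control cells as untreated, but their columns in the deposited counts are headed "Veh", and whether they received the solvent of S14 is not stated. The design text gives n = 4 for the mice without saying whether each replicate is a separate animal. The p-values below thus measure the spread between libraries, which may in part be technical. For the gene tests this spread was estimated within the groups of all 24 libraries. Cells stimulated for 3 h with lipopolysaccharide (LPS) at 100 ng/mL, and untreated and S14-stimulated cells at 18 h, with 4 libraries each, are used where they are named.

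Macrophages sense microbial and host-derived molecules through Toll-like receptors, C-type lectins and cytosolic sensors. Toll-like receptor signalling releases the transcription factor NF-kB from its inhibitors and activates MAP kinases, which induce cytokines, chemokines and the proteins that later end the response. A further arm, through interferon regulatory factors and secreted type I interferon, induces interferon-stimulated genes by way of Janus kinases and STAT factors. The same signals also lower many transcripts of resting macrophages, among them receptors, signalling regulators and cell cycle genes, and this side of the response is described here in as much detail as the genes that rise. Sphingomyelin itself is a lipid of the outer leaflet of the plasma membrane and is broken down to ceramide by sphingomyelinases.

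Each library held 3334182 to 5351447 reads assigned to genes, with 14694 to 15505 genes detected, and 11717 genes were tested. The reads come from the 3' ends of polyadenylated transcripts. Values are the authors' whole counts per gene, given below as counts per 1000000 of the scaled library (CPM), for each of the 4 libraries or as mean ± SD (n = 4). Differences are log2 fold changes ± SE from edgeR's quasi-likelihood test, given in parentheses after the levels, and a gene was called where its Benjamini-Hochberg adjusted p was under 0.05. Macrophage markers were abundant in both groups: the summed level of 12 markers ran from 26946 to 28306 CPM untreated and from 25944 to 27803 CPM with S14, and none was at 0. Markers of other cells were far lower. The 10 neutrophil markers summed to 3.11 to 4.8 CPM untreated and 5.79 to 13.8 CPM with S14, with Elane, Ltf, Ly6g and Prtn3 at 0 in all 8 libraries, and 8 T cell markers summed to 1.38 to 2.7 and 2.06 to 3.81 CPM. The 7 B cell markers summed to 37.8 to 50.4 and 42.5 to 49.9 CPM, with Ms4a1 at 0, and 5 endothelial markers to 35.4 to 45.3 and 32.1 to 50 CPM, with Tek and Tie1 at 0. Mast cell and basophil markers were at 0. The neutrophil sum was higher with S14, and its part in the results was not tested. In bulk RNA, fewer cells of a type and less RNA per cell cannot be told apart. Mitochondrial transcripts took 1.59% to 2.07% of reads untreated and 1.67% to 1.99% with S14 (two-sided exact permutation p = 0.429).

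The promoters of 5 genes that rose are printed here because they show, in the DNA next to the start site, the letters that the transcription factors of both arms of the response are known to bind. Each is the RefSeq window on GRCm38.p6 from 250 bases before to 50 bases after the start, 5′ to 3′ on the gene's own strand. Capitals mark matches to the 10-base NF-kB consensus in Gbp5, Cxcl10, Nfkbia and Sod2. In Gbp5, Ifit1 and Cxcl10 capitals mark matches to the core of the interferon-stimulated response element (ISRE). That core was searched as a pair of GAAA with any 2 bases between them, on both strands like every motif here. Gbp5 encodes a guanylate-binding protein of the defence against intracellular bacteria, Ifit1 an antiviral RNA-binding protein, Cxcl10 a chemokine for activated T cells, Nfkbia the NF-kB inhibitor IkB-alpha, and Sod2 the mitochondrial superoxide dismutase.
Gbp5, chr3:142496684-142496983, plus strand: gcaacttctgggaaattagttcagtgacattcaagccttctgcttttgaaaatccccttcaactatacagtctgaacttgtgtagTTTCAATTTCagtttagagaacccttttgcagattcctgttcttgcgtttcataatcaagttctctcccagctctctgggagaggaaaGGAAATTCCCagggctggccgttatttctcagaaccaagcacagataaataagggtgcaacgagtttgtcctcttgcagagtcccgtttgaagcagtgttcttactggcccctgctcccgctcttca
Ifit1, chr19:34640639-34640938, plus strand: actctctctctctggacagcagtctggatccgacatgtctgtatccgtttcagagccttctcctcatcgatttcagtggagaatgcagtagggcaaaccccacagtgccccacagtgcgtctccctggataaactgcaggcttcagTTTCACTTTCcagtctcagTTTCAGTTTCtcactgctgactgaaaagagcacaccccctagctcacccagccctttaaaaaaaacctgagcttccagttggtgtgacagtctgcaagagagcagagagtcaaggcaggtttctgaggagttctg
Cxcl10, chr5:92348840-92349139, minus strand: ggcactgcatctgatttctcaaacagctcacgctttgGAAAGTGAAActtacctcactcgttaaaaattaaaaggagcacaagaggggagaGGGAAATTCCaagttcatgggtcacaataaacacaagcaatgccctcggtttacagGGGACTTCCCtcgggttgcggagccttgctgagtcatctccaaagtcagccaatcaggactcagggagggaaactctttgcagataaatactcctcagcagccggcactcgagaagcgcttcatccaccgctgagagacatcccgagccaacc
Nfkbia, chr12:55492598-55492897, minus strand: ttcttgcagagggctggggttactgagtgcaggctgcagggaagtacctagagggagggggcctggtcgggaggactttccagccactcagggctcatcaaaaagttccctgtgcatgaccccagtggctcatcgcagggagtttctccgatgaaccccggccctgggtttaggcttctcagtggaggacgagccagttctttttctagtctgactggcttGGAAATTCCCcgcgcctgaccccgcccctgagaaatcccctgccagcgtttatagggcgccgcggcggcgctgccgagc
Sod2, chr17:13007589-13007888, plus strand: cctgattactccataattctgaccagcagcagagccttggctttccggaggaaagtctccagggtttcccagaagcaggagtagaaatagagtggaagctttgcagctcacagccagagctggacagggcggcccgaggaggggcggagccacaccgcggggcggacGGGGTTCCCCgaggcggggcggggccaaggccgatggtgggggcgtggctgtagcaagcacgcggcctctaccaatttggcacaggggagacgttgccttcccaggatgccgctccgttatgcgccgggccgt
In Gbp5 the ISRE core begins 165 bases before the start and the NF-kB match 77 bases before it. Ifit1 holds a pair of ISRE cores, 104 and 85 bases before the start. Cxcl10 holds an ISRE core at 213 bases and NF-kB matches at 159 and 103 bases. The NF-kB match lies 29 bases before the start in Nfkbia and 83 bases before it in Sod2. A match is a description of the letters and not a measured binding site.

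All 5 genes rose. Gbp5 had 17, 17.8, 17.2 and 12.8 CPM in the untreated libraries and 157, 177, 192 and 177 CPM with S14 (3.44 ± 0.28, adjusted p = 1.48e-08). Ifit1 went from 589.8, 692, 616 and 617 to 2274, 2724, 2302 and 2102 CPM (1.90 ± 0.28, adjusted p = 4.45e-05) and Cxcl10 from 241, 285, 287 and 294 to 1680.2, 2060.4, 1639 and 1559 CPM (2.65 ± 0.18, adjusted p = 7.3e-10). The other 2 genes, with an NF-kB match alone, rose as well. Nfkbia had 1243, 1257, 1424 and 1406 CPM untreated and 2358, 2548, 2851 and 2853 CPM with S14 (0.99 ± 0.07, adjusted p = 2.24e-14), and Sod2 246, 224, 258 and 289 and 771, 826, 885 and 934 CPM (1.75 ± 0.09, adjusted p = 2.87e-19). In each of the 5 genes every S14 library lay above every untreated one.

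Over all promoters, the same letters were more frequent among genes that rose than among the rest. A RefSeq window was matched by symbol for 8803 of the tested genes, taking the first listed start of each. The ISRE core was present in 9.91% of the 848 promoters of genes called higher, in 1.91% of the 577 of genes called lower and in 2.85% of the 7378 of genes not called. An NF-kB match was present in 9.2%, 4.33% and 4.69% of these promoters. Among genes called higher by at least 2-fold the shares were 14.3% and 11% of 301 promoters. The interferon-stimulated genes that rose held an ISRE core in 48.3% of 60 promoters, and genes that rose outside that list held it in 6.98% of 788. For the AP-1 site TGANTCA the shares were 7.31% of genes called higher, 5.37% of genes called lower and 4.76% of genes not called, and for the STAT site TTCNNNGAA 9.08%, 6.59% and 6.71%. In the 301 promoters of genes called higher by at least 2-fold these 2 sites were present in 12% and 10.6%. The FoxO site GTAAACA was in 3.3%, 3.64% and 2.32%, and the CCAAT box in 35.8%, 37.8% and 39.7%. The ISRE core and the STAT site can overlap. Over all promoters of the reference table, tested or not, the shares were 3.49% for the ISRE core, 4.35% for NF-kB, 7.93% for AP-1, 8.47% for the STAT site, 3.55% for FoxO and 37.9% for the CCAAT box. These shares are descriptions with no test.

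**Figure D1:**
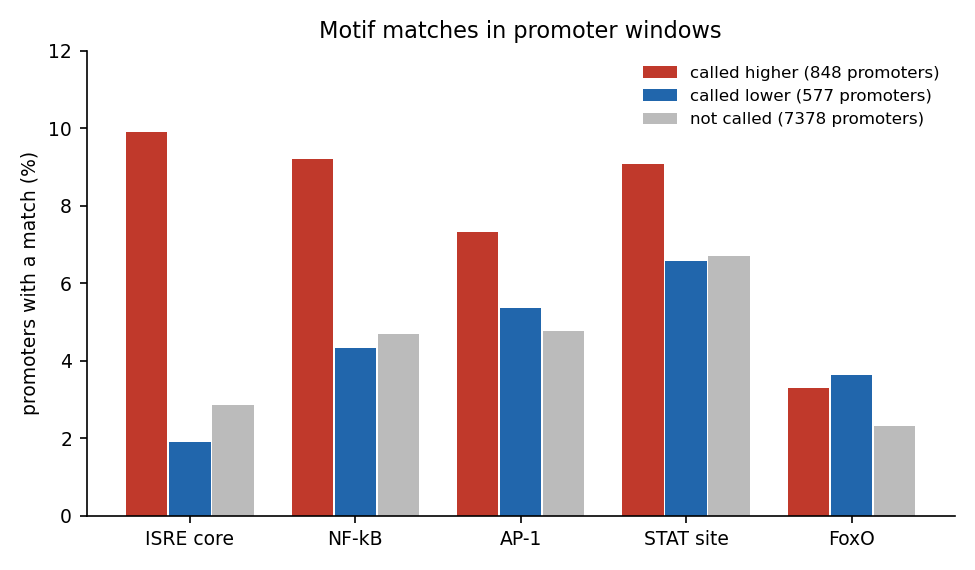
Share of RefSeq promoter windows (percent, y axis) that hold each motif, for genes called higher, called lower and not called with S14 at 3 h. The ISRE core and NF-kB bars of genes called higher stand at 9.91% and 9.2%, above 2.85% and 4.69% in genes not called, and the bars of genes called lower stand at 1.91% and 4.33%.

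The first question of the design is what 3 h of the lipid did to the transcriptome. S14 changed 1786 of the 11717 genes, 15.2%: 1060 were higher (9.05%) and 726 lower (6.2%). The rises reached further than the falls. By at least 2-fold, 380 genes were higher (3.24%) and 134 lower (1.14%), by at least 4-fold 133 and 14, and 61 rose by at least 8-fold. The median log2 fold change was 0.78 among genes called higher and -0.63 among genes called lower, beside -0.026 over all genes tested, and 81.5% of the falls were smaller than 2-fold against 64.2% of the rises. All 4 S14 libraries lay above all 4 untreated ones for 971 of the genes called higher and below them for 630 of the genes called lower; over all genes tested this held for 11.1% and 9.65%. The first principal component of the 8 libraries held 44.9% of the variance and placed the untreated libraries from -29.2 to -26.3 and the S14 libraries from 24 to 31.4.

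**Figure D2:**
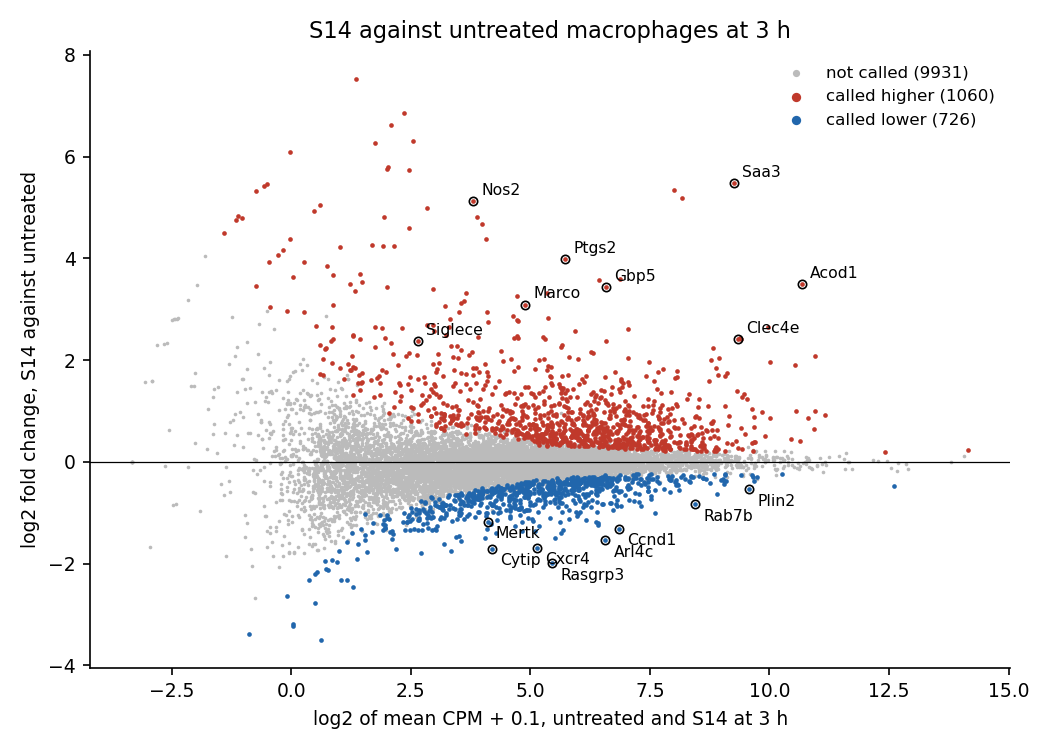
Log2 fold change of S14 against untreated cells at 3 h (y axis) by mean log2 CPM of the 8 libraries (x axis) for the 11717 genes tested, with the 1060 genes called higher, the 726 called lower and named examples marked. The rises reach beyond 8-fold, while 14 genes called lower fell by 4-fold or more.

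The share of genes called differed with the level. Of 3701 genes under 10 CPM 4.32% were called higher and 3.24% lower, and of 775 genes at 200 CPM or more 23.2% and 6.19%. Genes called higher took 14% ± 0.228 of all reads untreated and 21.9% ± 0.605 with S14, and genes called lower 7.77% ± 0.232 and 5.2% ± 0.146; the genes were chosen by this contrast, so these shares describe its size. All directions are relative to the typical gene of a library. No source used here says whether spike-in RNAs were added per cell or per amount of RNA, so what the spike-in scale is relative to is not known. These RNAs, measured in the authors' second table, took 0.0431% to 0.0595% of reads untreated and 0.0356% to 0.0472% with S14 (two-sided exact permutation p = 0.286). Scaling to them moved all log2 fold changes by a median of 0.114 over 24 libraries and 0.117 within the 8. The calls were then 374 (3.19%), 346 higher and 28 lower, over 24 libraries, 798 (6.7%), 679 higher and 119 lower, without untreated 18 h replicate 4, a library described below, and 1132 of 10585 genes (10.7%), 898 higher (8.48%) and 234 lower (2.21%), within the 8. The falls are thus fewer on that scale, and most accounts of gene lists with several falls give the count kept within the 8 libraries.

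The genes that fell most, at 10 CPM or more and with libraries that do not overlap, encode signalling regulators, receptors and enzymes. Their 20 lowest log2 fold changes ran from -1.99 to -1.32. Rasgrp3, an exchange factor that activates Ras and Rap downstream of diacylglycerol, led them: its untreated libraries had 66.2, 74.1, 75.5 and 66.4 CPM and its S14 libraries 16.8, 14.3, 18.1 and 21 CPM (-1.99 ± 0.18, adjusted p = 4.11e-11). Tcp11l2 had 11.3, 11.7, 7.48 and 9.7 and 2.33, 3.76, 2.74 and 2.71 CPM (-1.79 ± 0.28, adjusted p = 3.49e-06), and Kifc3, a minus-end directed kinesin, 16.5, 16.2, 16.5 and 12.5 and 5.94, 4, 3.58 and 4.92 CPM (-1.74 ± 0.30, adjusted p = 1.86e-05). In these 3 genes the highest S14 library lay under the lowest untreated one. Cytip, a cytohesin-binding protein that loosens integrin adhesion of leukocytes, had 27.5, 25.4, 32.8 and 26.3 CPM untreated and 10.9, 9.64, 6.53 and 7.63 CPM with S14 (-1.71 ± 0.19, adjusted p = 1.91e-09). Cxcr4, the receptor of the chemokine CXCL12, had 57.9, 62.2, 43.6 and 51.8 and 17.6, 16, 15.2 and 18 CPM (-1.69 ± 0.14, adjusted p = 1.47e-12), and Eps8, an actin-capping protein, 14.1, 15.3, 14.3 and 11 and 3.1, 5.41, 3.37 and 5.76 CPM (-1.61 ± 0.22, adjusted p = 2.79e-07). None of the groups overlapped. Arl4c, a small GTPase and LXR target, fell from 141 ± 4.29 to 48.9 ± 8.79 CPM (-1.54 ± 0.12), Gcnt1, which branches O-glycans, from 67.8 ± 3.47 to 24.1 ± 2.05 CPM (-1.50 ± 0.15), and the sorting nexin gene Snx24 from 17.5 ± 3.55 to 5.97 ± 1.38 CPM (-1.56 ± 0.20).

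The other genes of this group cover lipid, receptor and ubiquitin functions. Hpgd, the enzyme that inactivates prostaglandins, fell from 24.4 ± 5.36 to 8.59 ± 1.93 CPM (-1.49 ± 0.24, adjusted p = 6.3e-06), and Lpin1, a phosphatidate phosphatase of lipid synthesis, from 16.5 ± 2.44 to 5.98 ± 0.366 CPM (-1.45 ± 0.25). Cd28, best known as a costimulatory receptor of T cells, had 83.1, 73.9, 54.8 and 74.6 CPM untreated and 32, 34.3, 18.3 and 25.3 CPM with S14 (-1.39 ± 0.19, adjusted p = 1.84e-06). Its level lay far above the summed T cell markers, which reached at most 3.81 CPM. Cnr2, which encodes the cannabinoid receptor found on leukocytes, had 12.2, 11, 11.9 and 11.2 and 4.91, 4.47, 4.43 and 4.58 CPM (-1.33 ± 0.23, adjusted p = 2.92e-05). Rnf144b (-1.48 ± 0.25) encodes a ubiquitin ligase, Klhl6 (-1.39 ± 0.23) a ubiquitin ligase adaptor, Tmem86a (-1.37 ± 0.15) a lysoplasmalogenase, Rassf3 (-1.35 ± 0.13) a Ras-association domain protein, Susd3 (-1.34 ± 0.13) a sushi domain protein, Engase (-1.33 ± 0.27) a cytosolic glycosidase and Cnnm2 (-1.32 ± 0.32) a magnesium transport protein. All 20 genes stayed called under spike-in scaling within the 8 libraries, and 16 of them under that scaling over 24 libraries, or 20 without untreated 18 h replicate 4.

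**Figure D3:**
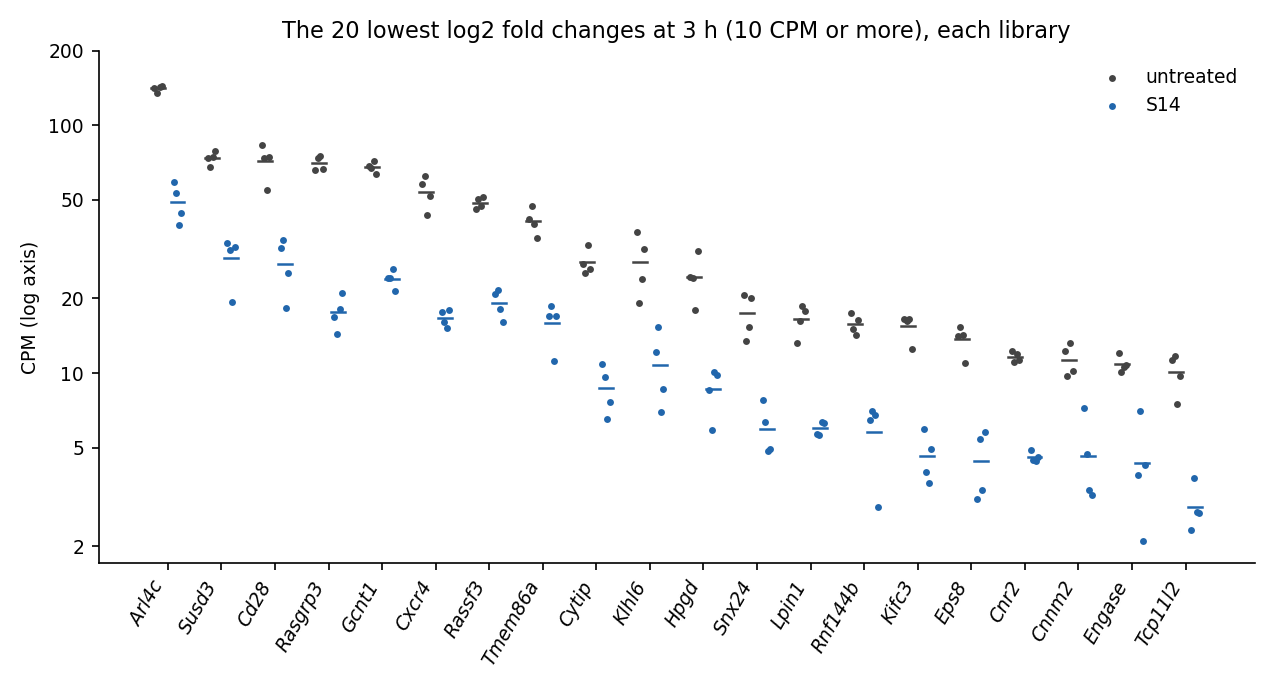
CPM (log axis) in each of the 4 untreated and 4 S14 libraries at 3 h for the 20 genes with the lowest log2 fold changes, with bars at the group means. The points of the 2 groups do not overlap in any of the 20 genes, which the naming rule required.

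On GRCm38, GENCODE M21 places these protein-coding genes as follows. Rasgrp3 (ENSMUSG00000071042) lies on chromosome 17 from 75435896 to 75529054, Cytip (ENSMUSG00000026832) on chromosome 2 from 58129137 to 58195532 and Cxcr4 (ENSMUSG00000045382) on chromosome 1 from 128588199 to 128592293. Arl4c (ENSMUSG00000049866) lies on chromosome 1 from 88673125 to 88702221, Hpgd (ENSMUSG00000031613) on chromosome 8 from 56294585 to 56321043 and Cnr2 (ENSMUSG00000062585) on chromosome 4 from 135895394 to 135920207. Of the rising genes described below, Saa3 (ENSMUSG00000040026) lies on chromosome 7 from 46711998 to 46715700, Acod1 (ENSMUSG00000022126) on chromosome 14 from 103046977 to 103056573, Mmp14 (ENSMUSG00000000957) on chromosome 14 from 54431612 to 54445364, Il4i1 (ENSMUSG00000074141) on chromosome 7 from 44816387 to 44840809, and Siglece (ENSMUSG00000030474) on chromosome 7 from 43651070 to 43660161. Marco (ENSMUSG00000026390) lies on chromosome 1 from 120474538 to 120505024.

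In absolute terms, the falls also reached abundant transcripts. Rab7b, a Rab GTPase of late endosomes that limits Toll-like receptor signalling, fell from 442, 446, 474 and 436 to 252, 275, 236 and 244 CPM (-0.84 ± 0.08, adjusted p = 7.49e-11). Rgs2, which shuts off G protein signalling, fell from 507, 626, 601 and 586 to 365, 464, 344 and 336 CPM (-0.62 ± 0.14, adjusted p = 0.00258). Plin2, the main coat protein of lipid droplets in macrophages, had 921, 889, 908 and 867 CPM untreated and 627, 735, 574 and 543 CPM with S14 (-0.53 ± 0.11, adjusted p = 0.000978). Every S14 library was under every untreated one in these 3 genes. Plin2, the protease gene Adam8 (-0.37 ± 0.09), the taurine transporter gene Slc6a6 (-0.24 ± 0.07) and Basp1 (-0.30 ± 0.09) were not called under spike-in scaling, while Rab7b and Rgs2 stayed called within the 8 libraries. The noncoding RNA Malat1 had the largest absolute loss, with 5930.4, 8597, 8424 and 5954 CPM untreated and 4538, 4683, 7079 and 4477 CPM with S14, and its groups overlapped: the highest S14 library exceeded a pair of untreated ones (-0.48 ± 0.15, adjusted p = 0.0406). Its call was lost in 5 of the 8 fits that left out 1 library, without S14 replicates 1, 2 or 4 and without untreated replicates 2 or 3, with log2 fold changes from -0.66 to -0.38. The largest gain in CPM was that of Fth1, the ferritin heavy chain that stores iron, with 16697, 16058, 16823 and 17474 CPM untreated and 19424, 18916, 19552 and 21250.5 CPM with S14 (0.24 ± 0.08, adjusted p = 0.0415); its call was kept only when S14 replicate 2 was left out, and the 8 such fits gave 0.20 to 0.26.

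Receptors moved in both directions. Among 9 tested chemokine receptors, Ccrl2, an atypical receptor that presents chemerin, rose from 16.2, 20.0, 14.7 and 17.9 to 76.2, 87.7, 83.7 and 83.9 CPM (2.27 ± 0.11, adjusted p = 4.34e-20), and the chemerin receptor Cmklr1 rose from 3.65 ± 0.852 to 12.4 ± 4.09 CPM (1.77 ± 0.28). Cxcr4 and Ccr2, the receptor of monocyte chemoattractant protein, fell (Ccr2 -0.90 ± 0.20, adjusted p = 0.000844). Of 38 tested receptors for lipids, nucleotides and metabolites 12 rose and 9 fell, with a median of 0.07, where 9.05% and 6.2% of all genes did. The adenosine receptor gene Adora2a had 7 reads in all untreated libraries together (0.235, 0, 1.32 and 0 CPM) and 7.49, 10.4, 13.1 and 10.7 CPM with S14 (4.59 ± 0.48, adjusted p = 6.24e-10), and Adora2b rose by 1.78 ± 0.21. Hcar2, the receptor of niacin and hydroxybutyrate, rose from 12.7 ± 2.38 to 66.9 ± 9.01 CPM (2.41 ± 0.17), and Lpar1, a lysophosphatidic acid receptor, from 9.52 ± 1.65 to 38.9 ± 5.83 CPM (2.02 ± 0.18). Against these, S1pr1, the sphingosine 1-phosphate receptor, fell from 35.6, 33.3, 38.7 and 35 to 12.7, 22.6, 19.6 and 20.0 CPM (-0.92 ± 0.17, adjusted p = 6.65e-05). A few further receptors of this list are named after their values were seen. The lysophosphatidic acid receptor gene Lpar6 was at -1.11 ± 0.13, P2ry1, an ADP receptor, at -1.21 ± 0.26, and Gpr183, which binds oxysterols, at -1.07 ± 0.23. Within the 8 libraries scaled to spike-in reads 12 receptors of the list rose and 6 fell.

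Inhibitory and growth factor receptors moved in both directions as well. Siglece, an inhibitory receptor for sialic acid, rose from 1.98 ± 0.986 to 10.4 ± 1.79 CPM, with the lowest S14 library above the highest untreated one (2.38 ± 0.35, adjusted p = 8.9e-07). Fcgr2b, the inhibitory receptor for IgG, rose from 18.7 ± 1.79 to 67.9 ± 15.2 CPM (1.87 ± 0.13), and Pilra, an inhibitory paired receptor, from 16.2 ± 4.86 to 45.2 ± 3.15 CPM (1.47 ± 0.21). In all, 8 of 41 tested members of this list rose and 7 fell, with a median of 0.09, where 9.05% and 6.2% of all genes did. Among the falls were Cd300lf (-1.15 ± 0.26) and Trem2 (-0.35 ± 0.07), both lipid-binding receptors named after their values were seen, and Cd300lb (-0.56 ± 0.10); 1 of the 7 falls was kept under spike-in scaling within the 8 libraries, and those of Trem2 and Cd300lb were not. Of 51 tested cytokine and growth factor receptors 13 rose and 7 fell. Tnfrsf1b, the second receptor of tumour necrosis factor, rose from 188, 195, 168 and 219 to 723, 693, 861 and 904 CPM (2.05 ± 0.10, adjusted p = 7.92e-19), and Csf3r, the G-CSF receptor, by 1.21 ± 0.20. Il6ra, the ligand-binding chain of the interleukin-6 receptor, fell from 155, 161, 144 and 159.9 to 87.9, 73.6, 94 and 83.6 CPM (-0.87 ± 0.10, adjusted p = 6.2e-09). Its signalling partner Il6st, named after its value was seen, was at -0.65 ± 0.11, and Nrp2 and Nrp1, co-receptors of semaphorins and VEGF, moved apart, with Nrp2 at 0.90 ± 0.07 and Nrp1, likewise chosen after its value was seen, at -0.59 ± 0.09. Of the 7 falls in this list 5 were kept within the 8 libraries scaled to spike-in reads.

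Most of the scavenger and clearance receptors were not called. Marco, a scavenger receptor for bacteria and particles, rose from 8.01, 4.28, 6.6 and 5.87 to 51.7, 45.9, 49.3 and 63.7 CPM (3.09 ± 0.35, adjusted p = 1.1e-06), and Msr1, another scavenger receptor, from 246 ± 18.8 to 461 ± 26.8 CPM (0.91 ± 0.11). Mertk, a receptor tyrosine kinase for the uptake of dying cells, had 21.9, 32, 24 and 16.3 CPM untreated and 14, 15.5, 5.27 and 8.31 CPM with S14 (-1.17 ± 0.26, adjusted p = 0.00202). The Mertk groups did not overlap, although the highest S14 library lay close to the lowest untreated one. Of 27 tested members of the list 5 rose and 3 fell, beside 9.05% and 6.2% of all genes. The median of the list was -0.10, and 1 fall was kept within the 8 libraries scaled to spike-in reads.

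Sensors for microbes mostly rose. Of 31 tested receptors for microbial products and nucleic acids 19 rose and 2 fell, beside 9.05% and 6.2% of all genes. The median of the list was 0.66. The formyl peptide receptor genes Fpr1 (2.25 ± 0.65 to 22.7 ± 4.6 CPM, 3.32 ± 0.44) and Fpr2 (4.9 ± 1.46 to 47.5 ± 7.64 CPM, 3.27 ± 0.24), which guide phagocytes to bacteria, led this list. Clec4e, the lectin Mincle that binds mycobacterial glycolipids, had 219.9, 176, 194 and 231 CPM untreated and 982, 1047, 1098 and 1244 CPM with S14 (2.41 ± 0.11, adjusted p = 2.54e-19). Nod2, a cytosolic sensor of bacterial cell wall, rose from 6.9 ± 2.66 to 26.2 ± 1.42 CPM (1.93 ± 0.25). The falls were those of Tlr4, the LPS receptor (-0.74 ± 0.11, also outside the naming rule), and Tlr13, the receptor of bacterial ribosomal RNA in mice. Tlr13, named after its value was seen, had 120.1, 118, 116 and 111 CPM untreated and 68.2, 67.3, 63 and 63.6 CPM with S14 (-0.83 ± 0.10, adjusted p = 2.99e-08), and both falls stayed called within the 8 libraries scaled to spike-in reads.

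The NF-kB list, which holds subunits, inhibitors and feedback genes, rose with 26 of 32 tested members and no fall (median 0.76). Over all genes 9.05% rose and 6.2% fell. Tnfaip2, a gene induced by tumour necrosis factor, had 394, 403, 454 and 426 CPM untreated and 1559.8, 1538, 1758 and 1696 CPM with S14 (1.97 ± 0.08, adjusted p = 2.03e-23). Peli1, a ubiquitin ligase of Toll-like receptor signalling, rose from 93 ± 10.2 to 314 ± 17.4 CPM (1.76 ± 0.08), Ripk2, the kinase downstream of NOD receptors, from 22.1 ± 3.28 to 64.6 ± 6.71 CPM (1.55 ± 0.18), and Tnfaip3, the deubiquitinase A20 that ends NF-kB signalling, from 25 ± 2.61 to 71.9 ± 10.9 CPM (1.53 ± 0.14). Under spike-in scaling 24 members rose within the 8 libraries, 13 over 24 libraries and 21 without untreated 18 h replicate 4, and none fell. Inhibitors of cytokine receptors rose beside them. Socs3 had 15.1, 17.1, 19.6 and 20.7 CPM untreated and 178, 194, 235 and 262 CPM with S14 (3.59 ± 0.21, adjusted p = 2.21e-11), Socs1 rose by 2.18 ± 0.19 and the kinase Jak2 by 2.07 ± 0.11. In the list of STAT factors, Janus kinases and SOCS inhibitors 12 of 29 rose and 1 fell.

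Factors that destabilise mRNA moved in opposite directions within a family. Of 25 tested members 5 rose and 3 fell, with a median of 0.01, beside 9.05% and 6.2% of all genes. Zfp36, the tristetraprolin gene whose product degrades cytokine mRNA, had 142, 178, 147 and 187 CPM untreated and 269.5, 332, 401 and 353 CPM with S14 (1.06 ± 0.13, adjusted p = 4.56e-07), whereas its relative Zfp36l2 had 6.83, 12.6, 13.9 and 7.66 and 6.72, 3.53, 2.11 and 4.41 CPM (-1.31 ± 0.34, adjusted p = 0.0045). The lowest untreated and the highest S14 library of Zfp36l2 lay next to each other. Zc3h12c, an endonuclease of the Regnase family, rose from 8.47 ± 0.901 to 25.5 ± 3.42 CPM (1.59 ± 0.23), and Zc3h12d of the same family fell from 41.3 ± 3.49 to 21.6 ± 3.67 CPM (-0.94 ± 0.14). The MAP kinase phosphatases showed the same kind of split, with Dusp2 (1.73 ± 0.21) and Dusp16 (0.90 ± 0.15) higher and Dusp7 (-0.89 ± 0.14) and Dusp3 (-0.46 ± 0.08) lower among 15 tested members of that list. The directions of these 8 genes did not change under spike-in scaling, where within the 8 libraries the call of Dusp3 was lost. Over 24 libraries on that scale all the falls among them, those of Zfp36l2, Zc3h12d, Dusp7 and Dusp3, lost their calls. The rise of Dusp16 lost its call there too.

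Interferon-stimulated genes rose as a group. Of 83 tested members 73 were higher and none lower, with a median of 1.07 beside -0.026 over all genes. Among all genes tested 9.05% were higher and 6.2% lower. With spike-in scaling 73 were higher within the 8 libraries and 40 over 24 libraries. Rsad2, the antiviral protein viperin, had 721, 815, 791 and 702 CPM untreated and 3238, 4201, 3014 and 2450.0 CPM with S14 (2.09 ± 0.16, adjusted p = 1.32e-09). Ifi205 rose by 2.95 ± 0.22, Gbp2 by 2.38 ± 0.17 and Iigp1, an immunity-related GTPase, by 1.83 ± 0.20. In the list of MHC molecules and costimulation 17 of 35 rose and none fell. Icosl, the ligand of the T cell costimulator ICOS, had 34.8, 30.4, 33 and 37.8 CPM untreated and 89.2, 118, 114 and 119 CPM with S14 (1.70 ± 0.15, adjusted p = 2.69e-12), and Cd83, a surface protein of activated antigen-presenting cells, rose from 32.9 ± 4.49 to 102 ± 18 CPM (1.63 ± 0.12). Cd69, an early activation antigen of leukocytes, rose from 6.12, 9.68, 5.94 and 7.41 to 68.7, 92.4, 72.9 and 60.9 CPM (3.33 ± 0.16, adjusted p = 1.89e-18).

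Of 38 tested inflammatory cytokines and chemokines 30 rose and none fell (median 2.34), where 9.05% and 6.2% of all genes did. Chemokines for neutrophils were among them: Cxcl1 had 7.77, 8.78, 11.2 and 13.3 CPM untreated and 47.5, 64, 96.5 and 81.9 CPM with S14 (2.83 ± 0.31, adjusted p = 1.6e-07), and Cxcl3 0.942, 1.58, 0.44 and 1.02 and 22.5, 19.5, 37.9 and 33.2 CPM (4.81 ± 0.36, adjusted p = 1.01e-13). In both genes S14 replicates 3 and 4 were the highest libraries. The abundant chemokine gene Ccl9 rose less, from 1582 ± 61.8 to 2981 ± 261 CPM (0.91 ± 0.07). Cxcl9, a CXCR3 ligand gene (2.69 ± 0.53), and Cxcl11 (2.82 ± 0.43) rose from under 4 CPM in each untreated library. GENCODE M21 annotates Cxcl11 as a polymorphic pseudogene.

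Most of the 14 genes with the highest log2 fold changes outside the cytokine list encode secreted proteins or enzymes. Saa3, an acute-phase serum amyloid protein, had 32.3, 27.5, 22.4 and 25.3 CPM untreated and 907, 1153, 1369 and 1344 CPM with S14 (5.47 ± 0.20, adjusted p = 6.77e-15). Acod1, the enzyme that makes itaconate from a citrate cycle intermediate, had 278, 265, 255 and 271 and 2775, 3296, 2951 and 2966 CPM (3.49 ± 0.12, adjusted p = 1.03e-19), and Il4i1, a secreted amino acid oxidase, 1.56 ± 1.09 and 31.8 ± 7.59 CPM (4.38 ± 0.32, adjusted p = 5.62e-12). The groups stood far apart in all 3. Lcn2, a protein that withholds iron from bacteria, had 7 untreated reads, all in replicate 1, and 10.9, 12.9, 14.8 and 16.1 CPM with S14 (4.99 ± 0.73). Adamts4, a protease of the cartilage matrix protein aggrecan, had 3 reads in untreated cells and 9.3, 7.76, 10.3 and 15.1 CPM with S14, a ratio of 62.6 with a 95% exact counting interval of 21.1 to 306 that covers counting error only. Ptgs2, the inducible cyclooxygenase, rose from 4.47, 6.08, 7.26 and 7.41 to 71.3, 82.3, 125 and 119.5 CPM (3.99 ± 0.17, adjusted p = 2.48e-18), and Ptges, which converts its product to prostaglandin E2, from 2.5 ± 1.22 to 21.9 ± 6.65 CPM (3.16 ± 0.31). In the eicosanoid list these were the rises among 19 tested members, while 4 fell, among them Hpgd and the prostaglandin D synthase gene Hpgds (-0.57 ± 0.12). Over all genes 9.05% rose and 6.2% fell. Hpgd stayed called under both spike-in scalings and Hpgds under neither.

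Proteases and adhesion molecules rose with 18 of 54 tested members, and 3 fell, where 9.05% and 6.2% of all genes did. Mmp14, a membrane-bound collagenase, had 12.7, 9.23, 14.5 and 17.6 CPM untreated and 113, 125, 188 and 214 CPM with S14 (3.58 ± 0.37, adjusted p = 4.6e-07), and Mmp13, a secreted collagenase, 7.06, 5.85, 8.58 and 5.62 and 36.4, 51.5, 52.1 and 46.6 CPM (2.77 ± 0.18, adjusted p = 5.31e-14). Icam1, which binds leukocyte integrins, rose from 206 ± 19.5 to 739 ± 37.1 CPM (1.84 ± 0.09), and Vcam1, a ligand of integrin alpha-4, from 2.64 ± 1.89 to 17 ± 0.603 CPM (2.66 ± 0.48). Lipg, endothelial lipase, rose from 1.32 ± 0.563 to 14.1 ± 3.47 CPM (3.40 ± 0.57), and C3, the central complement component, from 97 ± 13 to 344 ± 32.6 CPM (1.82 ± 0.09). The cytoskeletal genes Marcksl1 (1.70 ± 0.11) and Marcks (0.86 ± 0.08), whose products bind actin and phosphoinositides at the membrane, rose too.

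Regulators of cell death and lineage followed. In the apoptosis list 11 of 38 rose and none fell. Bcl2a1b, an inhibitor of apoptosis, had 0.471, 0.676, 1.54 and 2.04 CPM untreated and 31.8, 26.3, 27 and 37.3 CPM with S14 (4.68 ± 0.27, adjusted p = 6.05e-18); it has near-identical gene copies, so its share of their reads is uncertain. Gadd45b, a stress-induced growth arrest gene, rose by 1.47 ± 0.18. Of 51 tested myeloid transcription factors 13 rose and 12 fell, with a median of -0.15, beside 9.05% and 6.2% of all genes. Batf, an AP-1 family factor, rose from 7.06, 4.28, 3.3 and 3.83 to 21.4, 21.9, 32.7 and 24.8 CPM (2.45 ± 0.20, adjusted p = 5.01e-13), Cebpd from 72.6 ± 6.19 to 283 ± 21.1 CPM (1.96 ± 0.18) and Prdm1, the repressor Blimp-1, from 10.2 ± 1.76 to 30.4 ± 6.41 CPM (1.58 ± 0.22). The falls, named after their values were seen, included Lyl1, a factor of early haematopoiesis (45.2 ± 4.47 to 20.6 ± 1.84 CPM, -1.13 ± 0.14), and Mef2c (-0.80 ± 0.10). Of the 12 falls 5 were kept within the 8 libraries scaled to spike-in reads.

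Regulators of Ras and phosphoinositide signalling were called in both directions. Of 53 tested regulators of Ras, phosphoinositide and diacylglycerol signalling 8 rose and 11 fell, beside 9.05% and 6.2% of all genes. The median of the list was -0.10. Rasa3, which switches off Ras and Rap, had 39.1, 41.7, 31.9 and 32.7 CPM untreated and 14.5, 14.6, 15.8 and 15.4 CPM with S14 (-1.27 ± 0.15, adjusted p = 3.57e-09), and Arhgap45, a GTPase-activating protein, had 258, 274, 271 and 237 and 136, 133, 127 and 126 CPM (adjusted p = 2.02e-12). The related gene Arhgap27 was at -1.11 ± 0.24, and Inpp5d, the phosphatase SHIP1 that limits phosphoinositide 3-kinase signalling, named after its value was seen, at -0.81 ± 0.11. Among the rises were Arhgef3, a guanine nucleotide exchange factor (19.1, 12.8, 16.1 and 14.3 to 45.5, 60.5, 73.1 and 72.2 CPM, 2.02 ± 0.14), Cdc42ep2, an effector of Cdc42 (1.81 ± 0.18), Dgkh, a diacylglycerol kinase (1.08 ± 0.13), and Rassf4 (0.99 ± 0.08). Within the 8 libraries scaled to spike-in reads 8 of the 11 falls of the list were kept. Pde4b, which degrades cyclic AMP, rose from 66.2 ± 8.09 to 197 ± 10.5 CPM (1.57 ± 0.15).

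Cell cycle genes fell in part. Of 54 tested members 8 fell and 2 rose, where 6.2% and 9.05% of all genes did. Ccnd1, cyclin D1, which links growth factor signals to cell cycle entry, had 129, 172, 181 and 179 CPM untreated and 58.9, 77.4, 67.9 and 61.4 CPM with S14 (-1.32 ± 0.16, adjusted p = 5.94e-07). E2f2, a transcription factor of DNA replication genes, fell from 51.1 ± 7.67 to 21.6 ± 4.48 CPM (-1.26 ± 0.28), and Ccne2, cyclin E2, from 27.4 ± 1.75 to 15.6 ± 2.63 CPM (-0.82 ± 0.20). The cell cycle inhibitor gene Cdkn1a rose from 507, 511, 485 and 557 to 1088, 1015, 1115 and 1042 CPM (1.05 ± 0.09, adjusted p = 5.64e-13). At 18 h, in other libraries, 40 of the 54 genes were lower with S14 and 3 higher, where 11.6% and 12.6% of all genes were. These 18 h counts are on the count scale, and the 18 h effects depend strongly on the scale, as described below. Of the 8 falls at 3 h 5 were kept within the 8 libraries scaled to spike-in reads. Of 22 tested genes commonly assigned to FoxO factors 4 rose and 7 fell, with Tle1, a co-repressor, at -1.09 ± 0.22 beside Cxcr4 and S1pr1, and 4 of the 7 falls were kept on that scale.

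Other regulators of transcription and signalling were called in both directions. Of 31 tested immediate early genes 9 rose and 5 fell: Maff, a small Maf factor, rose from 1.65, 5.4, 5.72 and 3.32 to 10.1, 7.53, 12.9 and 13.2 CPM (1.43 ± 0.31, adjusted p = 0.000674) and the Krüppel-like factor gene Klf7 from 58.4 ± 7.21 to 146 ± 13.4 CPM (1.32 ± 0.13), while Klf9, another such factor that glucocorticoids induce, fell from 13.9 ± 2.03 to 7.37 ± 0.933 CPM (-0.92 ± 0.20). On the spike-in scale within the 8 libraries 1 of the 5 falls was kept. In the TGF-beta, BMP and Notch list 5 of 26 rose and 2 fell, with the receptor gene Notch1 at 1.48 ± 0.20, and with Ski, a co-repressor of SMAD factors, at -0.88 ± 0.12. Lysosome genes gave calls near the 9.05% higher and 6.2% lower of all genes, with 4 rises, among them the cathepsin C gene Ctsc (0.63 ± 0.09) and the ion channel gene Mcoln2 (1.06 ± 0.10), and 5 falls, among them the ion channel gene Tpcn1 (-0.63 ± 0.11), in 55 tested members, and 1 of the 5 falls was kept within the 8 libraries scaled to spike-in reads.

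Lipid metabolism was called in both directions. Of 42 tested sphingolipid genes 6 rose and 7 fell, with a median of -0.14, beside 9.05% and 6.2% of all genes. Cers6, a ceramide synthase, had 46.2, 47.1, 53 and 58.2 CPM untreated and 129, 126, 137 and 147 CPM with S14 (1.40 ± 0.10, adjusted p = 1.03e-14), and Plpp3, a phosphatase of sphingosine 1-phosphate and other lipid phosphates, rose from 5.37 ± 1.8 to 17.9 ± 3.81 CPM (1.75 ± 0.26). Cerk, the kinase that makes ceramide 1-phosphate, had 118, 107, 114 and 106 CPM untreated and 59.4, 56.9, 52.9 and 55.1 CPM with S14 (-0.99 ± 0.09, adjusted p = 5.21e-12), and Kdsr, an enzyme of sphingoid base synthesis, fell from 15 ± 2.93 to 7.01 ± 2.64 CPM (-1.12 ± 0.27). Within the 8 libraries scaled to spike-in reads 5 sphingolipid genes rose and 4 fell. Of 43 tested genes of fatty acid storage and use 4 rose, led by Acsl1 (1.12 ± 0.12), which activates long-chain fatty acids, and 9 fell, led by Lpin1. Of the 9 falls 1 was kept within the 8 libraries scaled to spike-in reads. Of 16 LXR genes 2 rose, the cholesterol exporter Abca1 (0.57 ± 0.14) and the receptor gene Nr1h3 (0.50 ± 0.14), and 5 fell, led by Arl4c, the fall that was kept within the 8 libraries scaled to spike-in reads. In cholesterol synthesis and uptake 4 of 27 rose and 1 fell.

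In the lists of redox, metal and glucose genes most members were not called, and the calls were mostly rises. In the NRF2 list 14 of 32 rose and 1 fell (median 0.25), beside 9.05% and 6.2% of all genes. The cystine transporter gene Slc7a11 had 4.94, 4.95, 6.38 and 7.66 CPM untreated and 37.2, 26.6, 47.8 and 62.2 CPM with S14 (2.87 ± 0.29, adjusted p = 6.09e-09). Prdx5, a peroxidase, rose from 233 ± 21.2 to 496 ± 16.6 CPM (1.09 ± 0.10), and Sqstm1, the autophagy receptor p62, from 999 ± 59.5 to 1991 ± 152 CPM (1.00 ± 0.09). Sqstm1 ran against its own list: of 38 tested autophagy genes 2 rose and 7 fell, among them Uvrag (-0.63 ± 0.11), and none of these falls was kept under spike-in scaling. Of 35 metal genes 10 rose and 1 fell. Cp, the ferroxidase ceruloplasmin, rose from 1.95 ± 0.797 to 16.6 ± 3.8 CPM (3.06 ± 0.24), the metallothionein gene Mt2 from 59.8 ± 6.68 to 179 ± 35.9 CPM (1.59 ± 0.11) and Slc39a14, a zinc and iron importer, from 6.5 ± 1.4 to 21.2 ± 5.58 CPM (1.71 ± 0.27). In glycolysis and hypoxia 10 of 41 rose and none fell, with Pfkfb3 (1.47 ± 0.15), which makes an activator of glycolysis, and the glucose transporter genes Slc2a6 (1.24 ± 0.09) and Slc2a1 (0.98 ± 0.13). The arginine transporter gene Slc7a2 rose by 2.19 ± 0.29, beside Nos2, the nitric oxide synthase that uses arginine (0.748 ± 0.391 to 27.1 ± 4.23 CPM, 5.12 ± 0.33).

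Of 25 tested antimicrobial and acute-phase genes 13 rose and none fell, with a median of 1.22, and of 28 genes of the integrated stress response 7 rose and 2 fell. In the lists of arginine and polyamine metabolism 5 of 32 rose and 1 fell, of the cytoskeleton 6 of 54 rose and 3 fell, and of complement 2 of 12 rose. Over all genes tested 9.05% were called higher and 6.2% lower. Regulators of G protein signalling gave 3 rises and 4 falls of 34, endoplasmic reticulum stress genes 3 and 1 of 31, and clock genes 1 and 2 of 17. Of these falls, 1 of the regulators of G protein signalling and 1 of the clock genes were kept within the 8 libraries scaled to spike-in reads.

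Ribosomal protein genes, mitochondrial transcripts and respiratory chain genes gave few or no calls. None of 81 tested cytosolic ribosomal protein genes, at a median of 0.04, and none of 17 mitochondrial transcripts, at -0.02, was called, by edgeR or within the 8 libraries scaled to spike-in reads. Of 72 nuclear respiratory chain genes 1 was called higher. Solute carriers split, with 24 of 185 higher and 20 lower. Of 277 zinc finger (Zfp) genes 7 were higher and 10 lower, and of all genes 9.05% and 6.2%. Among 57 histone and DNA modifying enzymes 6 rose and 11 fell, with Tet2, which oxidises methylcytosine, at 1.16 ± 0.13; 1 of these falls, 5 of those of solute carriers and 5 of those of zinc finger genes were kept within the 8 libraries scaled to spike-in reads.

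**Figure D4:**
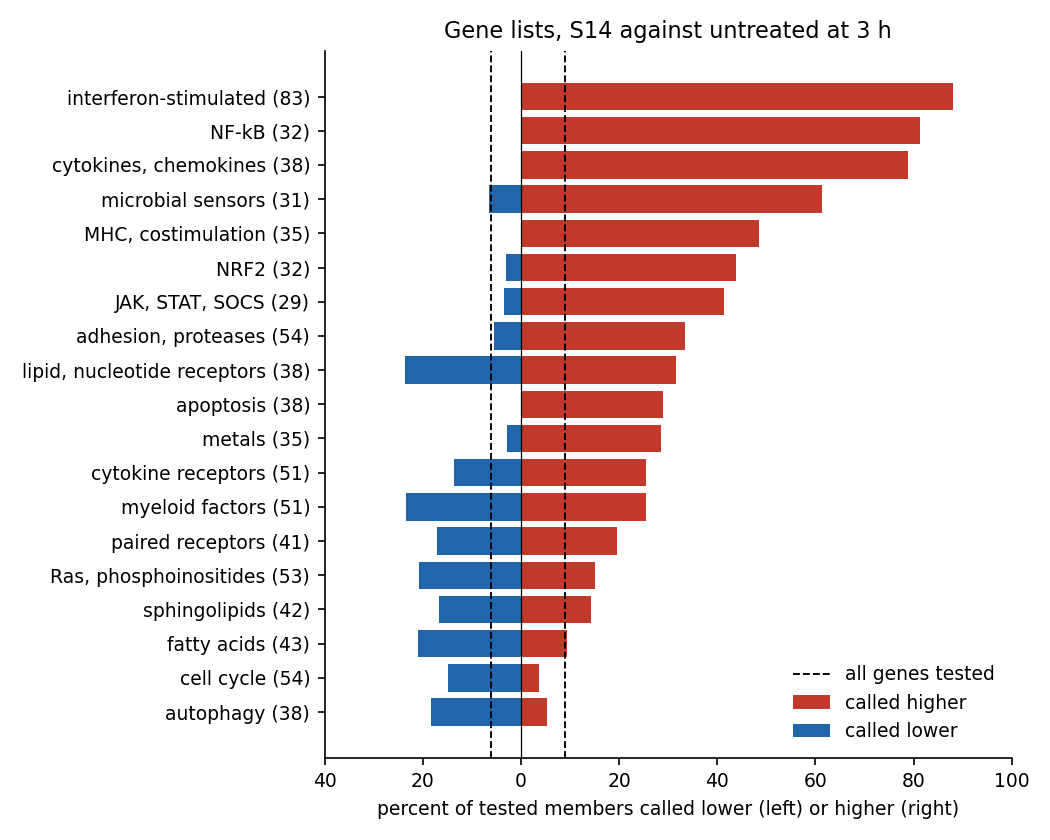
Percent of tested members called higher (right) and lower (left) with S14 at 3 h for 19 gene lists, with the number tested in each label and dashed lines at the 9.05% and 6.2% of all tested genes. The interferon, NF-kB and cytokine lists have bars to the right alone, and the list of Ras and phosphoinositide regulators has its longer bar to the left.

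The size of the S14 effect was set beside that of LPS at 3 h. Both effects use the same untreated libraries, so the direct test of S14 against LPS is given, in which 5399 genes differed (46.1%), 2775 higher with S14 (23.7%) and 2624 lower (22.4%). On the spike-in scale the split was 612 higher and 1620 lower, or 1066 and 2433 without untreated 18 h replicate 4. Several inflammatory genes were lower with S14: Saa3 reached 4431 ± 391 CPM with LPS (S14 against LPS -1.89 ± 0.16, adjusted p = 1.52e-09), Cxcl9 1084 ± 266 CPM (-6.47 ± 0.30, adjusted p = 2.32e-13), Mmp13 1623 ± 156 CPM (-5.12 ± 0.14) and Lipg 556 ± 30.8 CPM (-5.27 ± 0.31). Some genes went the other way. Siglece had 1.47 ± 0.754 CPM with LPS and 1.98 ± 0.986 CPM untreated, a difference not called (adjusted p = 0.447), and was higher with S14 by 2.83 ± 0.38 (adjusted p = 3.2e-08). Marco had 10.1 ± 2.76 CPM with LPS (S14 against LPS 2.37 ± 0.33, adjusted p = 4.54e-06), Icosl 61.1 ± 9.59 CPM (0.85 ± 0.14, adjusted p = 3.07e-06) and Sqstm1 1366 ± 82.8 CPM (0.54 ± 0.08, adjusted p = 7.1e-07). Pim2, a kinase of cell survival, rose with S14 from 3.09 ± 1.1 to 13.6 ± 3.53 CPM (2.12 ± 0.40) and stood at 5.43 ± 3.07 CPM with LPS (1.32 ± 0.38 between the stimuli, adjusted p = 0.00368). Among the 5 genes, Siglece and Marco were also called higher than with LPS on the spike-in scale, and Icosl, Sqstm1 and Pim2 were not; without untreated 18 h replicate 4 Pim2 was called there (0.99, adjusted p = 0.0431).

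Several genes that fell with S14 were higher with LPS than with S14. Mertk fell to 10.8 ± 4.8 CPM with S14 and had 126 ± 20.5 CPM with LPS, against 23.6 ± 6.48 untreated (S14 against LPS -3.59 ± 0.23, adjusted p = 4.68e-12). Cytip had 23.5 ± 1.47 CPM with LPS (-1.46 ± 0.19, adjusted p = 2.91e-08), Eps8 11.3 ± 1.48 CPM (-1.33 ± 0.23, adjusted p = 5.21e-06) and Rgs2 594 ± 104 CPM (-0.66 ± 0.14, adjusted p = 0.000481). LPS against untreated gave -0.25 ± 0.18, -0.27 ± 0.20 and 0.03 ± 0.14 for these 3 genes, none of them called (adjusted p = 0.227, 0.255 and 0.856). Tlr4 had 71.8 ± 9.59 CPM with LPS and 48.5 ± 4.19 CPM with S14 (-0.57 ± 0.11, adjusted p = 2.26e-05), a difference not called on the spike-in scale over 24 libraries (adjusted p = 0.0855) and called without untreated 18 h replicate 4 (adjusted p = 0.005). Klf4, a transcription factor of monocyte differentiation named after its values were seen, fell to 30.6 ± 4 CPM with S14 and had 77 ± 7.96 CPM with LPS, against 48.2 ± 4.74 untreated (-1.34 ± 0.14, adjusted p = 1.14e-10). Other genes stayed higher with S14 than with LPS. Cnr2 had 0 reads with LPS, so its level with S14 was at least 23.4-fold higher than with LPS, against a floor of 3 counts over the LPS libraries. Sesn1, a stress-induced inhibitor of growth signalling, had 62 ± 1.79 CPM untreated, 42.3 ± 4.19 with S14 and 2.24 ± 1.03 with LPS (4.23 ± 0.19), Plekhg3 37.2 ± 3.85, 18 ± 2.04 and 1.09 ± 1.1 CPM (4.06 ± 0.34), Slco4a1 205 ± 6.38, 113 ± 9.94 and 8.37 ± 2.39 CPM (3.74 ± 0.15), and Arl4c 7.4 ± 1.99 CPM with LPS (2.70 ± 0.16).

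**Figure D5:**
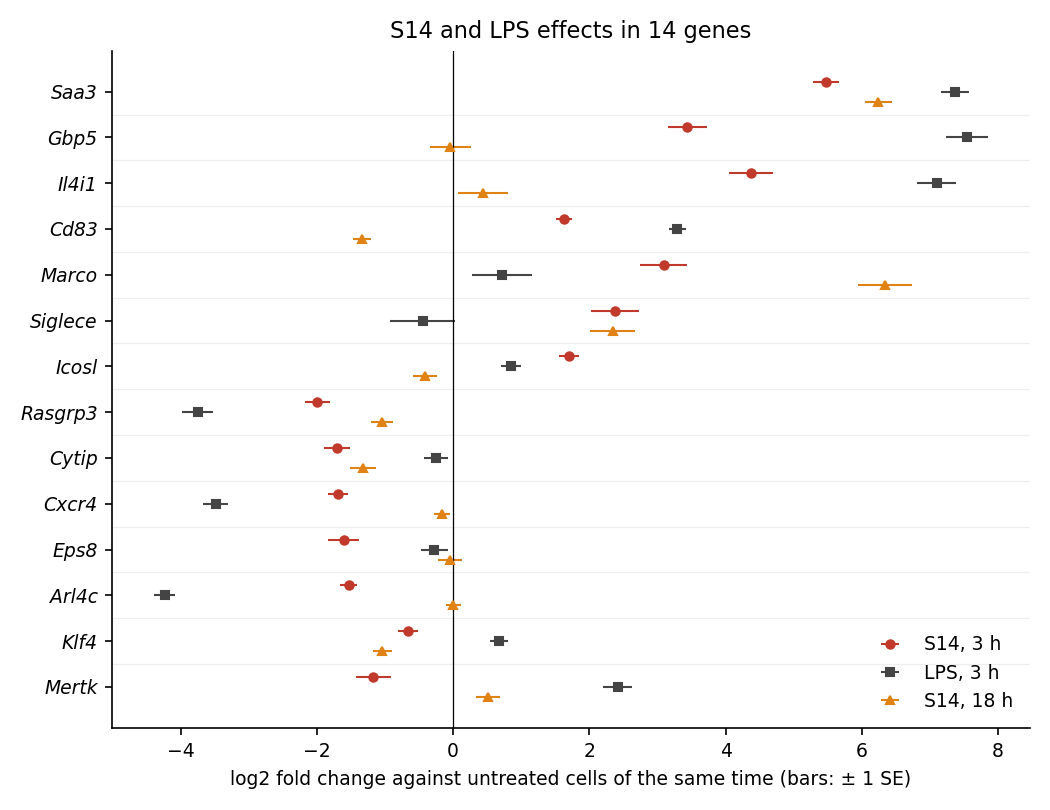
Log2 fold change (x axis, points, with bars of ± 1 SE) against untreated cells of the same time for S14 at 3 h, LPS at 3 h and S14 at 18 h in 14 genes. For Mertk and Klf4 the S14 point at 3 h lies left of 0 and the LPS point right of 0, and for Marco and Siglece the S14 points lie right of the LPS point, on the count scale.

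The libraries at 18 h are separate from those at 3 h and give another reading of the same genes. Of the 1060 genes called higher at 3 h, 378 (35.7%) were also higher with S14 at 18 h and 83 lower, where 12.6% and 11.6% of all genes were. The 726 genes called lower at 3 h gave 188 (25.9%) lower and 41 higher. Leaving out untreated 18 h replicate 4, whose log2 values spread around its group's mean with an SD of 0.37 against 0.154 to 0.234 in the other libraries (7920 genes above 10 CPM on average), the counts were 374 and 70 for the first group and 193 and 35 for the second, where 11.4% of all genes were called higher and 9.89% lower. A test of the difference between times called 1944 genes (16.6%), 1052 more positive and 892 more negative at 3 h. It called the effect more positive at 3 h for 532 (50.2%) of the genes called higher and more negative at 3 h for 284 (39.1%) of the genes called lower, beside 8.98% and 7.61% of all genes; these shares rest partly on the contrast that chose the genes. The median log2 fold change at 18 h was 0.21 for the first group, -0.12 for the second and -0.02 over all genes. These values depend strongly on the scale. Scaling to spike-in reads, added after the data were seen, moved the 18 h effects by a median of -0.97, to -0.98 over all genes, and the differences between times were then called more positive at 3 h for 4095 genes and more negative for 20. Spike-in reads were 0.0134% of untreated 18 h replicate 4 and 0.0333% to 0.0418% of the other untreated libraries at 18 h. Without that library the spike-in scale moved the 18 h effects by a median of -0.48, and the counts were 1401 and 26.

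On the count scale, individual genes differed between the times. Among the 20 lowest genes 9 were also lower at 18 h, and none was higher. Rasgrp3 was at -1.04 ± 0.16 at 18 h (3 h minus 18 h -0.95 ± 0.24, adjusted p = 0.00496), a difference that turned to 0.13 (adjusted p = 0.826) on the spike-in scale and to -0.28 (adjusted p = 0.604) there without untreated 18 h replicate 4. Hpgd was at -2.32 ± 0.21, a difference between times of 0.84 ± 0.32 that was not called (adjusted p = 0.0696) but was called on the spike-in scale, at 2.05 (adjusted p = 0.00902), or 1.25 (adjusted p = 0.0296) without untreated 18 h replicate 4. Others were near 0 at 18 h: Arl4c gave 0.00 ± 0.11 (difference -1.54 ± 0.16, adjusted p = 1.79e-09), Cxcr4 -0.16 ± 0.12 (-1.53 ± 0.19, adjusted p = 4.8e-08), Eps8 -0.05 ± 0.17 (-1.56 ± 0.28, adjusted p = 8.12e-05) and Snx24 -0.01 ± 0.15 (-1.56 ± 0.25, adjusted p = 1.01e-05). Mertk was called lower at 3 h and higher at 18 h, at 0.51 ± 0.18 (difference -1.69 ± 0.32, adjusted p = 0.000505). On the spike-in scale the 18 h values were -0.33 for Mertk, -0.91 for Arl4c, -1.21 for Cxcr4, -1.09 for Eps8 and -0.96 for Snx24, and none of these 5 differences between times was called. Without untreated 18 h replicate 4 that of Cxcr4 was called on this scale (-1.02, adjusted p = 0.046) and the other 4 were not (adjusted p from 0.0755 to 0.117). Rising genes also differed. Saa3 stayed raised at 6.24 ± 0.20 and Acod1 at 3.50 ± 0.13, while Gbp5 gave -0.04 ± 0.30 (difference 3.48 ± 0.41, adjusted p = 5.51e-06) and Il4i1 0.44 ± 0.37 (3.94 ± 0.53, adjusted p = 2.57e-06). The rise of these last 2 genes was thus seen at 3 h and not called at 18 h in the fit over 24 libraries. Without untreated 18 h replicate 4 the 18 h values were 0.55 for Gbp5 and 0.29 for Il4i1. On the spike-in scale Gbp5 was at -1.41 at 18 h, or at 0.07 without that library, so its 18 h level is uncertain. Marco rose further, to 6.34 ± 0.39 (difference -3.25 ± 0.62, adjusted p = 0.000923). Cd83 turned, from 1.63 ± 0.12 at 3 h to -1.34 ± 0.13 at 18 h (difference 2.97 ± 0.18, adjusted p = 2.23e-16). Ephrin A2 (Efna2), a ligand of Eph receptors, was at 1.95 ± 0.33 at 3 h and -2.16 ± 0.46 at 18 h (difference 4.11 ± 0.56, adjusted p = 4.84e-07), and Cxcl1 at -1.61 ± 0.76 at 18 h, not called (difference 4.44 ± 0.79, adjusted p = 0.000292). The differences between times of Gbp5, Il4i1, Marco, Cd83, Efna2 and Cxcl1 stayed called on the spike-in scale, with and without that library.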

How the data were processed

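RNA from mouse bone marrow-derived macrophages was sequenced as 3' end libraries from 150 ng of RNA, per the labels' protocols. The authors deposited whole-number counts per gene, and a second table whose unit is a signal, gene counts that the authors divided by size factors, with spike-in RNAs; 100% of its values came out as whole reads (largest deviation 8.59e-10). The submitters' processing notes name the build GRCm38 and the tools STAR 2.6.1a, Subread with featureCounts 1.6.4, cutadapt 1.18, DESeq2 and FastQC. No source here gives the strand setting, the annotation or the handling of multi-mapping reads. Here, 7 ribosomal RNA entries (0.132% to 0.469% of reads) were left out of library sizes and tests, genes were filtered with filterByExpr, counts were scaled with TMM, and edgeR 4.0.16 (R 4.3.3, limma 3.58.1) fitted 1 mean per group over 24 libraries with robust quasi-likelihood dispersions and Benjamini-Hochberg adjustment. Alternatives were DESeq2 1.42.0 and other scalings, filters and library sets. Counts for S14 against untreated cells at 3 h were also simulated, over 11126 genes, from the untreated 3 h means in every library. In the S14 libraries at 3 h alone, 65, 65 and 64 genes were raised or lowered by 1.5-fold, 2-fold and 4-fold. The fit recovered 38.5%, 76.9% and 92.2% of them, and 2.9% of its calls were false. With so few and balanced changes the simulation cannot show errors of scaling, so its false share need not hold for the real counts. The comparison and the gene lists were chosen with earlier results of these data known. Named genes are the 14 highest (outside the cytokine list) and 20 lowest log2 fold changes at 10 CPM or more with libraries that do not overlap, the 8 largest gains and losses of CPM, the 4 largest changes in each list, and the 6 highest and 6 lowest of S14 against LPS and of 3 h minus 18 h among genes called at 3 h; others are said to be chosen after their values were seen. Some genes of this rule and a few gene lists are not reported here. Intervals cover counting error only.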

Additional observations from a re-analysis of the deposited data

Results flagged for a closer look

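In 23 of 332 groups of 4 libraries at 3 h, over the named genes, the highest or lowest library stood apart from the other 3 beyond Dixon's 95% limit, which is 6.93% of the groups. Chance flags about 1 in 20 groups. Untreated replicate 1 held Ccnd1 at 129 CPM, Cxcl10 at 241 CPM, Lcn2 at 1.65 CPM, Pim2 at 4.71 CPM and Ripk2 at 17.2 CPM. Untreated replicate 2 held Nrp1 at 279 CPM. Untreated replicate 3 held Lyl1 at 38.5 CPM. Untreated replicate 4 held Cp at 0.766 CPM, Gbp5 at 12.8 CPM, Icam1 at 235 CPM and Kifc3 at 12.5 CPM. S14 replicate 1 held Ccl9 at 2592 CPM, Cd300lb at 149 CPM, Icosl at 89.2 CPM, Jak2 at 81.1 CPM, Msr1 at 422 CPM and Pim2 at 18.9 CPM. S14 replicate 2 held Cxcl11 at 25.9 CPM. S14 replicate 3 held Abca1 at 72.9 CPM, Malat1 at 7079 CPM, Susd3 at 19.4 CPM and Trem2 at 425 CPM. S14 replicate 4 held Rnf144b at 2.88 CPM. Apart from Malat1, leaving out any of these libraries ended none of these genes' calls.

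The S14 effect at 3 h differed from that at 18 h in 1944 genes by the test of the difference. Among the named genes the effect was more negative at 3 h, in log2 units, in Arl4c (-1.54), Cxcr4 (-1.53), Eps8 (-1.56), Marco (-3.25), Mertk (-1.69), Rasgrp3 (-0.95) and Snx24 (-1.56). It was more positive at 3 h in Cd83 (2.97), Cxcl1 (4.44), Efna2 (4.11), Gbp5 (3.48) and Il4i1 (3.94). On the spike-in scale the differences of Marco and of the genes more positive at 3 h stayed called.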

How the results depend on the processing

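The counts of genes called with S14 at 3 h stayed within 1.5 times of 1060 higher and 726 lower with DESeq2's Wald test (1152 and 677), its size factors (1117 and 662), no filter (1036 and 699), the reads of the second table (1056 and 733), the 8 libraries alone (1311 and 1051), and without untreated 18 h replicate 4 (1199 and 892). Leaving out each of the 8 libraries in turn gave 927 to 1005 higher and 564 to 644 lower. Spike-in scaling moved the counts to 346 higher and 28 lower over 24 libraries and left 898 higher but 234 lower within the 8; for S14 against LPS it gave 612 higher and 1620 lower, and for the effect at 3 h minus that at 18 h, an alternative added after the data were seen, 4095 higher and 20 lower. Leaving out untreated 18 h replicate 4 as well, also added after the data were seen, gave 679 higher and 119 lower, 1066 and 2433, and 1401 and 26 for these comparisons. On the spike-in scale the difference between times of Rasgrp3 reversed to 0.13 over 24 libraries. The cause was not tested. Spike-in reads were at most 0.0595% of a 3 h library, which limits the precision of this scale.

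Of 166 genes named in the text none changed direction at 3 h under any alternative. Leaving out 1 library ended the calls of Fth1 and Malat1 and of no other; spike-in scaling ended 59 calls over 24 libraries, 25 without untreated 18 h replicate 4 and 13 within the 8, and each further alternative at most 1. With the replicate number as a block 1096 genes were higher and 767 lower, and no call of a named gene was lost. Deviations of same-numbered libraries correlated at 0.0146 to 0.142 and those of others at -0.106 to 0.0837. Of the 8 libraries 5 correlated best with their own number, and whether the numbers pair the libraries was not tested. Under 10 CPM 4.32% of genes were called higher and 3.24% lower, and at 200 CPM or more 23.2% and 6.19%; the part of depth in this was not tested. Leaving out LPS or 18 h libraries other than untreated 18 h replicate 4 was not run.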

Other observations

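Long noncoding RNAs were among the genes tested, and the classes counted here were called no more often than all genes. Of 148 genes annotated as lincRNA 8 were called higher and 9 lower, and of 129 antisense genes 4 and 4, where 9.05% and 6.2% of all genes were; in protein-coding genes the counts were 1021 and 703 of 10532. The genes named here were chosen after their values were seen, among those at 10 CPM or more. AW112010, an interferon-inducible RNA of macrophages from which a small protein can be translated, had 5.18, 4.05, 4.4 and 3.83 CPM in the untreated libraries and 30.5, 39.5, 24.2 and 25.3 CPM with S14 (log2 fold change 2.75 ± 0.27, adjusted p = 3.03e-08 by edgeR's quasi-likelihood test). It was also higher with S14 at 18 h, at 2.38 ± 0.20. Morrbid, an RNA that lengthens the life of short-lived myeloid cells, had 6.36, 4.28, 4.4 and 6.64 and 15.5, 14.3, 16.9 and 16.8 CPM (1.56 ± 0.23, adjusted p = 7.8e-07). Both groups of libraries were apart in these 2 genes. The lincRNA Gm28875 fell, from 38.6, 44.4, 37.4 and 38 to 20.2, 20.7, 17.1 and 23.6 CPM (-0.95 ± 0.16, adjusted p = 7.24e-06), and was at 40.7 ± 8.65 CPM with LPS (S14 against LPS -0.99 ± 0.16, adjusted p = 1.09e-06). Whether the authors counted reads by strand is not known, so reads of these genes and of overlapping genes on the other strand may not be told apart.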
